A study of Rattus norvegicus with 6 samples.

Results

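These measurements concern 10 genes that the tumour suppressor p53 is known to switch on, among 15645 gene symbols with a RefSeq probe on the array. The genes were Gdf15, Cdkn1a, Mdm2, Ccng1, Phlda3, Btg2, Bax, Aen, Gadd45a and Sesn2, and their members on the array were the probes, other than control spots, whose accession is a RefSeq transcript of the gene. This gave 19 probes, with 1 probe for 3 of the genes, 2 probes for 5 and 3 probes for 2. RNA came from the renal cortex of male Sprague-Dawley rats, 5 weeks old when bought. The fungicide chlorothalonil was given to 3 animals at 500 mg/kg/day and corn oil alone to 3 others, both for 4 weeks and on the same basal diet. Each animal gave 1 single-colour Agilent array, and the design asks which cortex genes differ after chlorothalonil. The source name of chlorothalonil replicate 3 names another compound, ethylenediamine dihydrochloride. Its other labels (title, treatment, dose) name chlorothalonil, by which it was grouped, and the members' values are also given without it.

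DNA breaks, stalled replication and other stress free p53 from its ubiquitin ligase MDM2, and p53 then binds near its target genes and raises their transcription. The targets halt the cell cycle, repair DNA, trigger cell death or feed back on p53 itself, and several of them, such as Gdf15, Sesn2 and Gadd45a, can also be raised without p53 by stress of the endoplasmic reticulum or of mitochondria. In kidney tubules, p21, the product of Cdkn1a, and GDF15 are known for their response to toxic and ischaemic injury.

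The DNA that p53 recognises holds a pair of short runs, each called a p53 decamer. RefSeq windows from 250 bases before to 50 bases after the transcription start (assembly GRCr8) were present for 9 of the 10 genes, with 2 windows for Gdf15. An exact decamer was found in 4 of these 10 windows, and in 7.98% of all 33469 windows of the same length. The 4 lay in Cdkn1a, 201 bases before the start (GAACATGTCT), Ccng1, 232 bases before it (GGGCAAGCCT), Aen, 30 bases before it (GGGCATGTCC), and Gadd45a, 48 bases before it (GGGCTAGCCC). The pattern searched is its own reverse complement, so both strands were covered, and a match describes letters, not binding. Shown are the window of Gdf15 at the start of its downstream transcript, as the gene with the largest change, and those of Cdkn1a and Aen, as 2 genes with the motif, whose letters are in capitals.
Gdf15, chr16:18839015-18839314 (+ strand): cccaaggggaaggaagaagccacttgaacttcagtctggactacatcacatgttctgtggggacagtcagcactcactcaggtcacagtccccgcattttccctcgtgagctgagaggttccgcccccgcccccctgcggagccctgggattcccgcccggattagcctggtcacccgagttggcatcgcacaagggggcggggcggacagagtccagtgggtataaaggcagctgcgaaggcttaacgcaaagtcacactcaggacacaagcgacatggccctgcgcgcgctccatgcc
Cdkn1a, chr20:7150682-7150981 (+ strand): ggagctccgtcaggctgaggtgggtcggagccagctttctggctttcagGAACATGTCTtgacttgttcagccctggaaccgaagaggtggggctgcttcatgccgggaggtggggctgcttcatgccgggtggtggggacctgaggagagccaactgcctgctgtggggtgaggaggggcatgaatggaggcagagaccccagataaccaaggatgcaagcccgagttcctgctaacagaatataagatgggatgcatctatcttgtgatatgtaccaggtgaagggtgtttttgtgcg
Aen, chr1:142224283-142224582 (+ strand): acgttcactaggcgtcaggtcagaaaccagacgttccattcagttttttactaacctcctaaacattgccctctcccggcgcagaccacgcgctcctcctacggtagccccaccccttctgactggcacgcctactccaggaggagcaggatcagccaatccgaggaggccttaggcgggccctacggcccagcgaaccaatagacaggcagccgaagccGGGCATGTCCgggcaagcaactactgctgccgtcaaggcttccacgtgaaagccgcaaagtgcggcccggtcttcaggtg

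None of the 10 genes passed the test after adjustment over the whole array. The nearest was Gdf15, whose mean with chlorothalonil was 1.99-fold that with corn oil. Cdkn1a, Mdm2, Bax, Ccng1, Gadd45a, Aen, Phlda3, Btg2 and Sesn2 had log2 fold changes between −0.12 and 0.20. In limma, 0 of 10 members passed an adjusted p of 0.05, where 3.12% of all 29115 features did (1.3% higher and 1.82% lower). An unadjusted p under 0.05 was found for 1 of 10, where 19.7% of all features had one. The chlorothalonil arrays all lay on one side of the corn oil arrays for 2 of the 10, Gdf15 above and Cdkn1a below, where 27.7% of all features had groups that did not overlap. A change of at least 0.99 log2 units in either direction was found for 2.12% of all features. That cut-off lies just under the value of Gdf15 itself. Gdf15 therefore meets it by construction, and the share only describes the size of its change. The median log2 fold change of the members was 0.04, with 5 above and 5 below 0, beside a median of 0.00355 and 50.8% above 0 over all features. The chlorothalonil arrays shared a slide and a scan date and the corn oil arrays another of each. Slide, scan date and treatment therefore cannot be told apart in any value below.

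Levels are given as log2 of the signal minus log2 of the array's 75th percentile, so 0 is the 75th percentile and 1 unit is a doubling. Probes of different genes bind with different strength, so these levels rank arrays and not genes. Where a gene had several probes, the brightest on average was taken for its fold change. All probes of the members are described, and other genes are given on the brightest probe unless another is named.

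**Figure D1:**
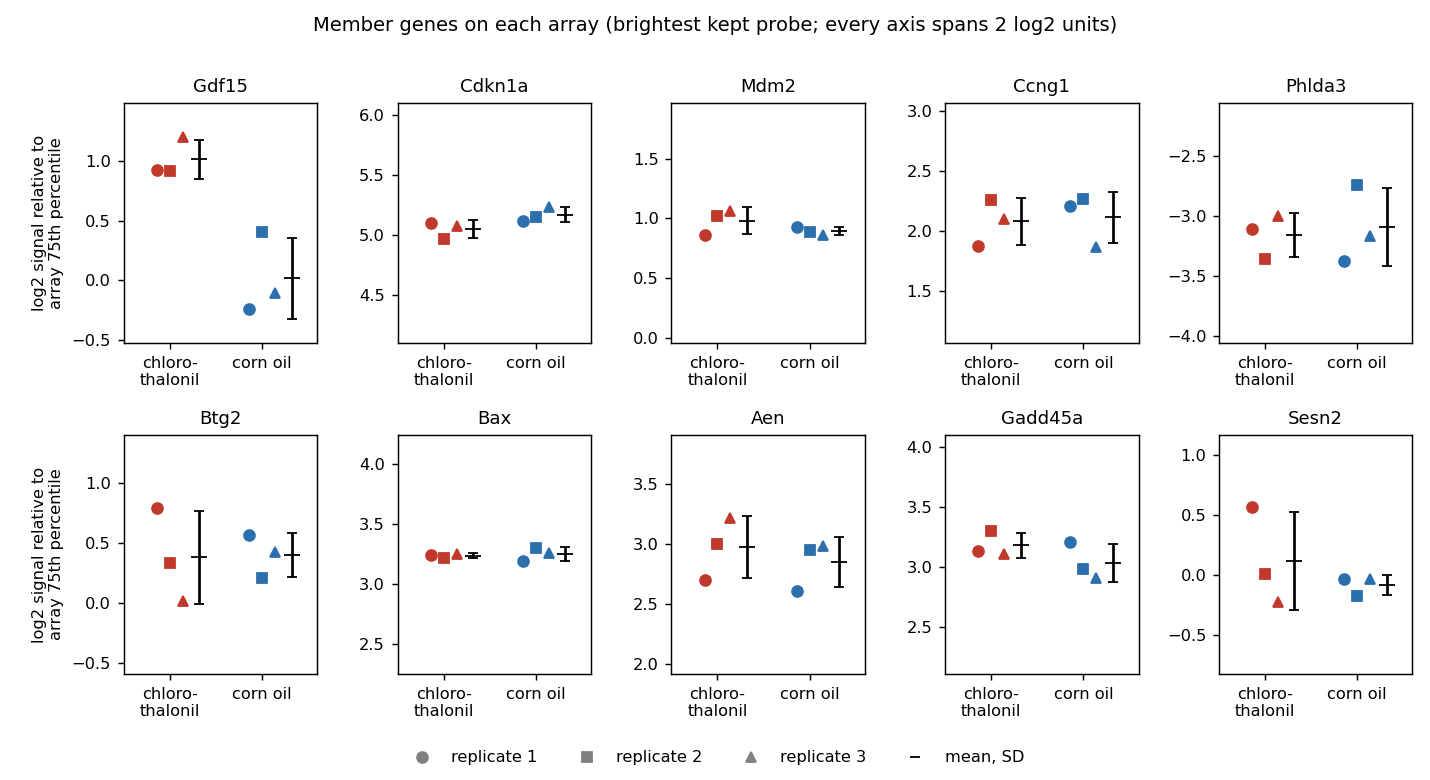
Log2 signal relative to the array's 75th percentile (vertical axes, each spanning 2 log2 units) for the 10 members on every array, with chlorothalonil in red and corn oil in blue. Symbols mark the replicate, bars the mean and SD (n = 3); the Gdf15 groups lie clearly apart, those of Cdkn1a are separated by a margin smaller than a symbol, and those of the other 8 genes overlap.

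Gdf15 encodes a secreted factor of the TGF-beta family that acts through the receptor GFRAL in the brainstem and lowers food intake. Its brighter probe was at 0.92, 0.92 and 1.20 in chlorothalonil replicates 1 to 3, against −0.24, 0.40 and −0.10 in corn oil replicates 1 to 3. All chlorothalonil arrays lay above all corn oil arrays, and the highest corn oil array, replicate 2, lay about midway between the other corn oil arrays and the chlorothalonil ones. The log2 fold change was 0.99 ± 0.19 (SE, n = 3 each), with a 95% interval from 0.53 to 1.45, an unadjusted p of 0.00192 and an adjusted p of 0.0562 in limma. In linear terms the interval ran from 1.45-fold to 2.74-fold. Its other probe gave 0.89, 0.87 and 1.05 with chlorothalonil, against −0.26, 0.38 and −0.13 with corn oil, and a log2 fold change of 0.94 ± 0.18 with an adjusted p of 0.0590 in the limma fit of all probes. Both probes measure the same animals, so they are 1 observation and not 2. By size, 97.9% of all features had a smaller change than Gdf15.

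Whether Gdf15 passed depended on the processing. Across 17 alternatives its log2 fold change lay between 0.86 and 1.18 and its adjusted p in limma between 0.025 and 0.157, and it passed in 5. These were scaling to the array median (adjusted p of 0.0482), normexp background correction of the median signal together with quantile normalization (0.025), only probes well above background on all 6 arrays (0.0471), a robust variance prior with trend (0.0354), and leaving out corn oil replicate 2 (0.0375). Without chlorothalonil replicate 3, whose source name states another compound, it was 0.90 with an adjusted p of 0.157. Of 10 E1A spike-in controls, 9 were lower and 1 was higher on the chlorothalonil slide, with differences from −0.34 to 0.05 on the log2 scale. The 4 whose mean lay within the levels of the tested member probes differed by −0.21 to −0.11. Their part in the members' differences was not tested.

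Cell-cycle arrest genes come next. Cdkn1a encodes p21, which inhibits cyclin-dependent kinases and is the best known p53 target. On its brightest probe it was at 5.10, 4.96 and 5.07 with chlorothalonil, against 5.12, 5.15 and 5.23 with corn oil. The groups did not overlap, but the gap between the nearest arrays was small. The log2 fold change was −0.12 ± 0.07 (SE), with a 95% interval from −0.30 to 0.05 and an adjusted p of 0.408 in limma.

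The other 2 Cdkn1a probes carry the same transcript accession and behaved differently. The middle one was at 1.05, 0.80 and 0.29 with chlorothalonil, against 1.71, 1.21 and 0.53 with corn oil, a log2 fold change of −0.44 ± 0.34 whose interval, −1.28 to 0.40, includes both no change and a fall of more than 2-fold. In both groups replicate 1 was the highest and replicate 3 the lowest, a pattern the brightest probe lacked. The dimmest probe was well above background on 3 of 6 arrays and was not tested: it lay at −3.88 in chlorothalonil replicate 1, −5.74 and −5.68 in the other chlorothalonil arrays, and between −6.27 and −5.06 with corn oil. The probes' sequences were not used here, so where on the transcript they bind is not known.

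Btg2, an antiproliferative gene that is also induced early by growth signals, was at 0.79, 0.34 and 0.02 with chlorothalonil, against 0.57, 0.21 and 0.43 with corn oil. The groups overlapped fully, and the chlorothalonil animals spread over 0.77 log2 units. Its log2 fold change was −0.02 ± 0.21 (SE), and 0.11 ± 0.17 on its other probe. Gadd45a, a stress-induced protein that interacts with PCNA and p21 and slows entry into mitosis, was at 3.14, 3.30 and 3.11 with chlorothalonil, against 3.21, 2.98 and 2.91 with corn oil. Corn oil replicate 1 lay among the chlorothalonil arrays, and the log2 fold change was 0.15 ± 0.11, with an interval from −0.11 to 0.41.

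Ccng1, which encodes cyclin G1, a p53 target that brings the phosphatase PP2A to MDM2, had 2 probes that differed in their pattern across arrays. The brighter probe was at 1.88, 2.26 and 2.10 with chlorothalonil, against 2.21, 2.26 and 1.87 with corn oil, and its log2 fold change was −0.03 ± 0.15 (SE). The dimmer probe was at −0.99, 1.41 and −0.85 with chlorothalonil, against 1.45, −0.56 and −1.01 with corn oil. On that probe 1 animal in each group, chlorothalonil replicate 2 and corn oil replicate 1, read 2469 and 2456 in processed signal, while the other 4 animals read between 451 and 651. On the brighter probe those 2 animals, at 4460 and 4152, were among the 3 highest of 6, and the 6 arrays ranged from 3276 to 4603. The split on the dimmer probe did not follow treatment, and its fold change of −0.10 ± 0.89 has an interval from −2.30 to 2.09.

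**Figure D2:**
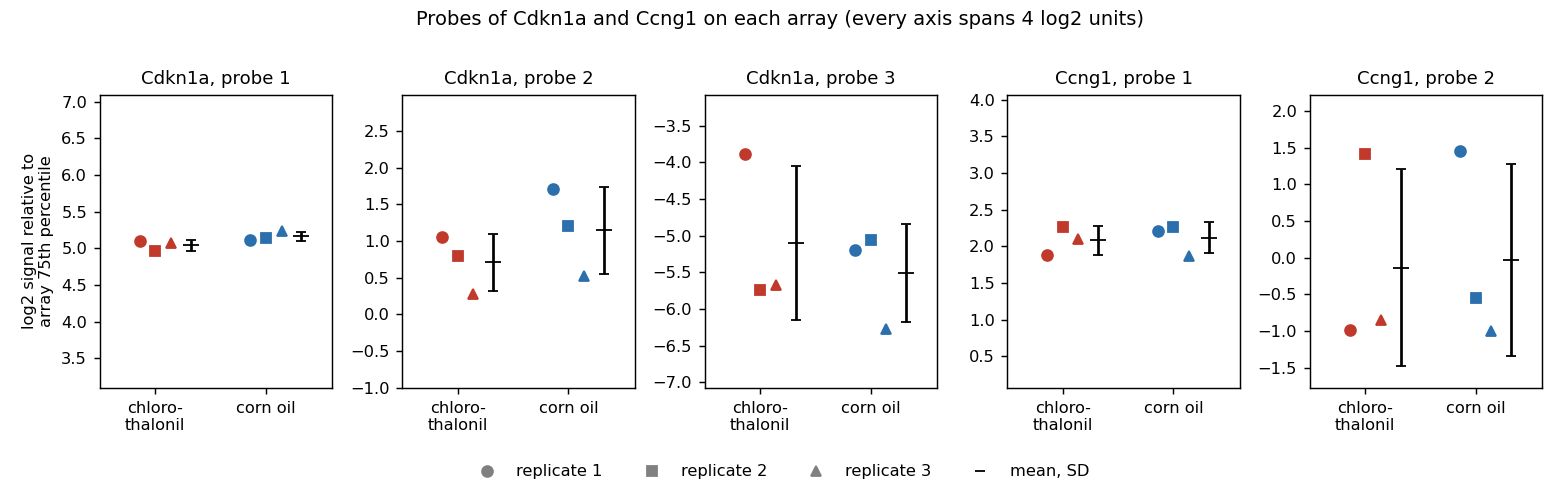
Log2 signal relative to the array's 75th percentile (vertical axes, each spanning 4 log2 units) for the 3 probes of Cdkn1a and the 2 of Ccng1 on every array, brightest probe first, with mean and SD (n = 3). The dimmer Ccng1 probe splits the 6 animals into 2 high, 1 in each group, and 4 low, and the brighter one does not.

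The feedback and cell-death genes differed little between the groups. Mdm2, the ubiquitin ligase that marks p53 for breakdown, was at 0.86, 1.02 and 1.07 with chlorothalonil, against 0.93, 0.89 and 0.86 with corn oil. The log2 fold change was 0.09 ± 0.08 (SE) on this probe and 0.10 ± 0.08 on the other, and the interval of the brighter one, from −0.10 to 0.28, leaves out a rise of more than 1.21-fold. Bax, which forms pores in the outer mitochondrial membrane, was at 3.24, 3.22 and 3.26 with chlorothalonil, against 3.19, 3.31 and 3.26 with corn oil. It was the tightest member, with a pooled SD of 0.04 that only 4.81% of all features undercut. Its log2 fold change was −0.01 ± 0.06 and its interval ran from −0.17 to 0.14. The other probe was at −0.08 ± 0.06. On it the groups did not overlap, with 2.50, 2.43 and 2.51 with chlorothalonil against 2.52, 2.56 and 2.59 with corn oil.

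Aen, an exonuclease of the nucleus that takes part in apoptosis, was at 2.70, 3.00 and 3.21 with chlorothalonil, against 2.61, 2.95 and 2.98 with corn oil. Replicate 1 was the lowest array of both groups. The log2 fold change was 0.12 ± 0.17 (SE) on this probe, 0.18 ± 0.08 on the middle one and 0.23 ± 0.09 on the dimmest. Without chlorothalonil replicate 3 the brightest probe was at 0.00236, and without corn oil replicate 1 at 0.00425. On the dimmest the groups did not overlap, with −1.57, −1.51 and −1.32 with chlorothalonil against −1.78, −1.64 and −1.68 with corn oil, and the unadjusted p in limma was 0.041, with an adjusted p of 0.238 over 39862 probes. Phlda3, a protein with a PH domain that holds back the kinase AKT, was the dimmest member, at −3.11, −3.36 and −3.01 with chlorothalonil, against −3.38, −2.74 and −3.17 with corn oil. Corn oil replicate 2 was the highest of the 6, and the log2 fold change was −0.06 ± 0.19.

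Sesn2, a sestrin that restrains the growth kinase mTORC1 when amino acids are short, was at 0.57, 0.01 and −0.23 with chlorothalonil, against −0.03, −0.18 and −0.03 with corn oil. Chlorothalonil replicate 1 stood above the other 5 arrays, and chlorothalonil replicate 3 was the lowest of the 6. The log2 fold change was 0.20 ± 0.21 (SE), with an interval from −0.31 to 0.70. Without chlorothalonil replicate 1 it was −0.03, and without chlorothalonil replicate 3 it was 0.37.

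**Figure D3:**
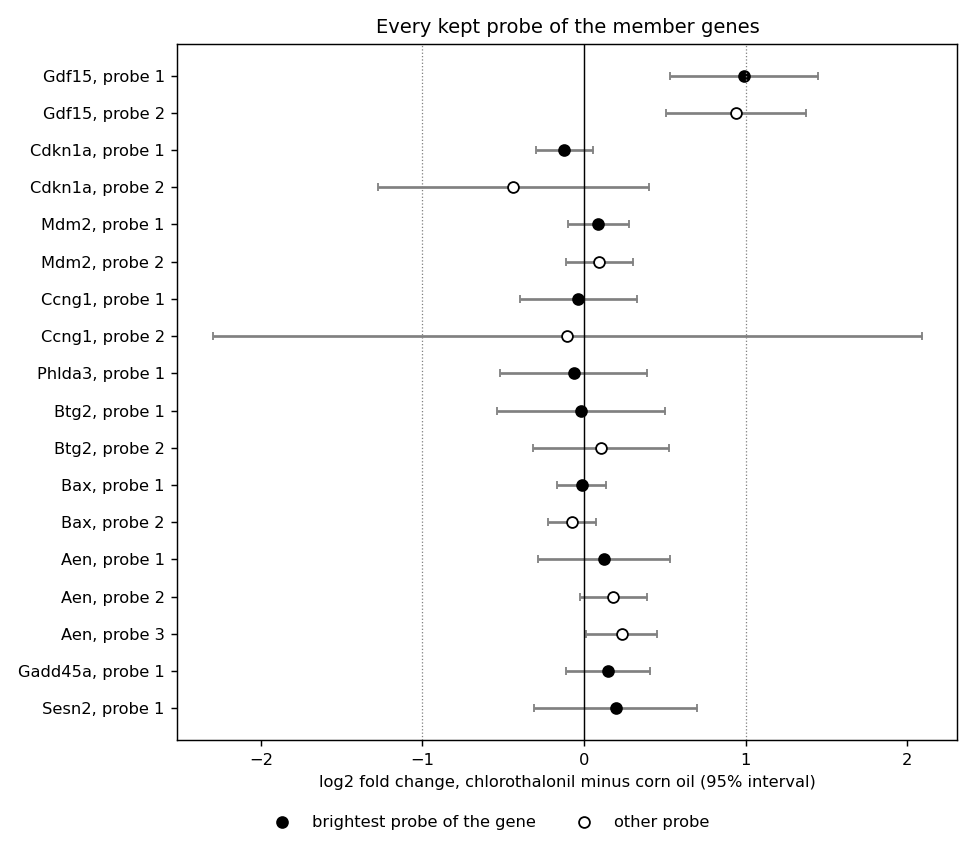
Log2 fold change, chlorothalonil minus corn oil, with its 95% interval from limma (horizontal axis) for the 18 probes of the 10 members that passed the filter on dim probes. Filled points are the brightest probe of each gene, and dotted lines mark 2-fold either way; both Gdf15 probes lie near 1, and 1 Ccng1 probe has an interval beyond 2 in both directions.

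On the brightest probes, the 95% intervals of 9 of the 10 members lay within 2-fold either way, Gdf15 being the exception. Without chlorothalonil replicate 3, 0 of the 10 passed in limma. The log2 fold change without it was then −0.14 for Cdkn1a, 0.05 for Mdm2, −0.05 for Ccng1, −0.14 for Phlda3, 0.16 for Btg2, −0.02 for Bax and 0.19 for Gadd45a, so that of Btg2 changed sign. The spread between animals of a group differed among members. Bax, Cdkn1a and Mdm2 had pooled SDs of 0.04, 0.07 and 0.08, below the median of 0.132 over all features, whereas Btg2, Sesn2, Gdf15 and Phlda3 had 0.30, 0.29, 0.27 and 0.26. At the level of single probes, 0 of the 18 that passed the filter reached an adjusted p of 0.05 in limma, beside 2.67% of all probes, and 3 had an unadjusted p under 0.05, beside 19.2%. These 3 were both Gdf15 probes and the dimmest of Aen.

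Other known p53 targets were also examined. Of 26 measured in a list of 33, 0 passed in limma. Unadjusted p-values under 0.05 were found for 4, beside 19.7% of all features. Their median log2 fold change was 0.07, with 14 above and 12 below 0. Xpc, which recognises bulky DNA damage in nucleotide excision repair, was at 0.86, 0.82 and 0.82 with chlorothalonil, against 0.36, 0.49 and 0.18 with corn oil. The groups did not overlap, and the log2 fold change was 0.49 ± 0.09 (SE), with an adjusted p of 0.0577. Its other probe was at 0.47 ± 0.09. Xpc passed under 4 alternatives, namely normexp with quantile normalization, probes well above background on all 6 arrays, the mean of a gene's probes and the variance prior with trend.

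In this list 3 more genes passed under at least 1 alternative, and they are named after their values were seen. Tp53i13, a gene induced by p53, was at 0.26 ± 0.07 (SE) on its brighter probe and at 0.54 ± 0.09 on the other, which passed with an adjusted p of 0.0418 in the fit of all probes. Zmat3, an RNA-binding protein, was at −0.18 ± 0.11 on its bright probe. Its dim probe, which passed in the fit of all probes, was well above background on 3 of 3 chlorothalonil arrays and 0 of 3 corn oil arrays, so its level with corn oil is only a bound and no fold is given. Plk3, a stress-responsive kinase, was at −0.23, −0.02 and −0.46 with chlorothalonil, against 0.23, −1.66 and −1.53 with corn oil. Its call, without corn oil replicate 1, rests on leaving out the highest corn oil array.

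Of 14 measured regulators of p53, 1 passed in limma as lower with chlorothalonil and 0 as higher, beside 1.82% and 1.3% of all features. Unadjusted p-values under 0.05 numbered 3, beside 19.7% of all features. These were Rchy1, Tp73 at −0.82 ± 0.22 (SE) and Chek1 at −0.46 ± 0.16, Tp73 and Chek1 being named after their values were seen. The median log2 fold change was −0.14, with 5 above and 9 below 0. Groups did not overlap for 2 higher and 5 lower genes, beside 13.6% and 14% of all features. Rchy1, also called Pirh2, a ubiquitin ligase that targets p53, fell, at −0.01, −0.05 and −0.04 with chlorothalonil, against 0.38, 0.44 and 0.38 with corn oil. Its log2 fold change was −0.43 ± 0.06 (SE), with an adjusted p of 0.0248 in limma, from 1 probe. Across 17 alternatives the value ran from −0.44 to −0.31, and the call was lost in 8, among them no filter on dim probes (adjusted p of 0.0937) and each of the 6 fits with a single array left out (0.0709 to 0.0995).

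**Figure D4:**
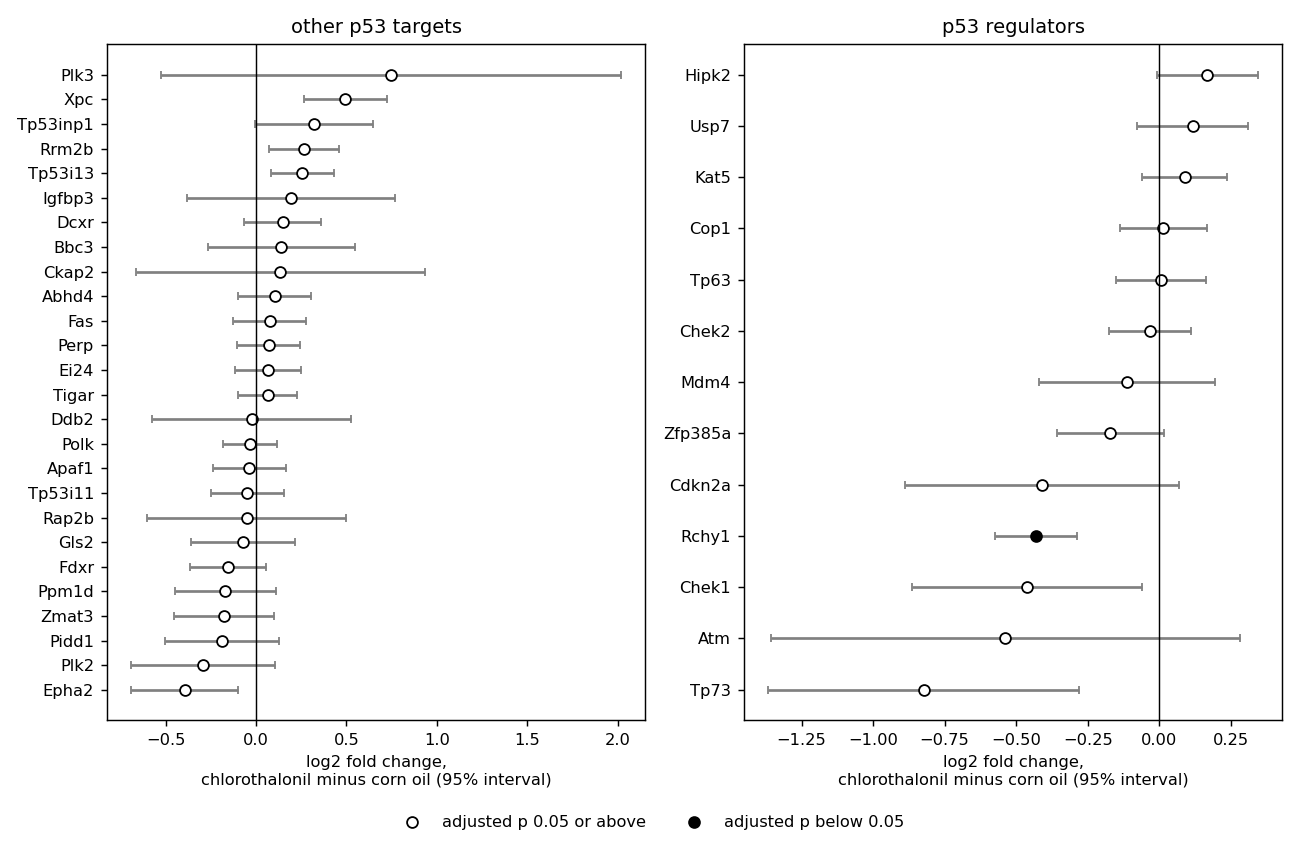
Log2 fold change, chlorothalonil minus corn oil, with its 95% interval from limma (horizontal axes) for 26 other p53 targets on the left and 13 regulators of p53 on the right. Among the genes shown, only Rchy1, the filled point, passed an adjusted p of 0.05.

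DNA repair genes beyond these did not pass either. Of 25 measured, 0 passed in limma, and their log2 fold changes lay between −0.20 and 0.26. A single gene reached an unadjusted p under 0.05, as 19.7% of all features did. That was Xpa, another excision repair factor, at 0.26 ± 0.08 (SE) with an adjusted p of 0.162 in limma.

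Paralogs of the members, which share their protein family, gave 0 calls among 16 measured genes in limma. An unadjusted p under 0.05 was found for 5, beside 19.7% of all features. Groups did not overlap for 3 higher and 4 lower genes of the 16, beside 13.6% and 14% of all features. Gadd45b was at 0.09, −0.19 and −0.02 with chlorothalonil, against −0.46, −0.44 and −0.51 with corn oil, a log2 fold change of 0.43 ± 0.09 (SE) with an adjusted p of 0.0716, and it passed with the robust trend prior (0.0442). Its sister Gadd45g was at 0.12 ± 0.13. The growth-arrest paralogs Btg1 and Btg3 were at −0.27 ± 0.09 and −0.19 ± 0.08, both with all chlorothalonil arrays below corn oil. Cdkn1c, an inhibitor of cyclin-dependent kinases like p21, was at 0.35 ± 0.12. Its 5 kept probes ran from −9.3e-05 to 0.35. Cdkn1b was at −0.08 ± 0.14. Bak1, the partner of Bax in opening mitochondria, was at −0.28 ± 0.07 and Bok at −0.19 ± 0.21. The cyclins Ccng2 and Ccni were at −0.17 ± 0.07 and 0.08 ± 0.06. The remaining values were 0.11 for Sesn3, −0.19 for Phlda1, 0.31 for Phlda2, −0.11 for Mdm4, 0.09 for Isg20 and −0.01 for Isg20l2, and the smallest unadjusted p among these 6 in limma was 0.17, for Phlda1.

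Gdf15 and Sesn2 are also targets of the stress factor ATF4. Of 14 measured genes of that list, which includes both, 0 passed in limma. Unadjusted p-values under 0.05 were found for 3, beside 19.7% of all features. These were Gdf15, Ddit3 and Asns, the last at 0.26 ± 0.10 (SE). The median log2 fold change was 0.03, with 9 above and 5 below 0. After Gdf15 the largest rises were those of Nupr1, at 0.58 ± 0.30, and Ddit4, at 0.52 ± 0.46. Asns, Nupr1 and Ddit4 were named after their values were seen. The stress factor Atf4 itself was at 0.02 ± 0.06 (SE). Its partner in the stress response, Ddit3 (chosen with its value known), stood at −0.38 ± 0.09, and at −0.17 on its other probe. Ddit3 passed only with the robust trend prior among the alternatives. Of 13 measured BCL2 family genes, 0 passed in limma. Below an unadjusted p of 0.05 were 2, beside the same 19.7%, Bak1 having the smallest. Of 13 measured proliferation genes, 0 passed in limma, and 1 was below an unadjusted p of 0.05, beside the same 19.7%. That was the replication licensing factor Cdc6, which was well above background on 5 of 6 arrays. Only 1 group therefore carried it past the filter on dim probes. Its lowest array was corn oil replicate 3, at −5.45, so its level with corn oil may be only a bound and no fold is given.

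Markers of the kidney tubule were detected. Each of the 12 proximal tubule markers was detected well above background on the 6 arrays. Of them 0 passed in limma, and 4 were below an unadjusted p of 0.05, beside 19.7% of all features. The 5 markers of medulla and collecting duct were also above background on all 6 arrays, so detection does not separate cortex from other kidney regions. Slc13a3, a proximal tubule carrier, came nearest to passing, at 0.34 ± 0.06 (SE) with an adjusted p of 0.0507. Of the 12 proximal tubule genes 6 were above and 6 below 0, with a median of 0.02. The groups did not overlap for 2 higher and 2 lower genes, beside 13.6% and 14% of all features. The lower ones were the glucose and lactate carriers Slc5a2 at −0.35 and Slc5a12 at −0.27, named after their values were seen. The summed signal of the 12, in units of the 75th percentile, was 2102 to 2197 with chlorothalonil, against 1818 to 2076 with corn oil. Their mean log2 level, relative to its corn oil mean, overlapped, at 0.05, 0.01 and −0.00352 with chlorothalonil, against 0.09, 0.01 and −0.10 with corn oil. Podocyte, medullary and leukocyte markers had summed signals that overlapped between the groups. The leukocyte markers Cd3e, Cd79b and Itgam and the adrenal markers Star and Cyp11b1 did not pass the filter on dim probes. The leukocyte markers Ptprc, Cd68 and Adgre1, the adrenal marker Cyp21a1 and the fat markers Adipoq and Cidec were well above background on all 6 arrays. The genes with the smallest p in these lists had log2 fold changes of 0.22 (Podxl), 0.30 (Slc12a1), −0.47 (Adgre1) and 0.54 (Cidec). Adgre1 had an unadjusted p of 0.0097 and an adjusted p of 0.123 in limma. All its chlorothalonil arrays lay below corn oil, beside 14% of all features, while the groups overlapped for Ptprc and Cd68. The 5 genes listed as red blood cell markers lay higher with chlorothalonil. Hbb, Hba-a1 and Alas2 were at 0.24, 0.27 and 0.25, and Slc4a1 and Slc25a37 at 0.73 and 0.45. Which cells these transcripts came from was not tested. Of the 5, 0 passed in limma, and 5 were below an unadjusted p of 0.05, beside 19.7% of all features. All 5 had every chlorothalonil array above corn oil, beside 13.6% of all features. Their summed signals were 567 to 613 with chlorothalonil against 482 to 502 with corn oil. Slc25a37 was nearest to passing, at 0.45 ± 0.09 with an adjusted p of 0.06 in limma. Under alternatives, Slc25a37 and Hba-a1 passed with the robust trend prior, and Slc25a37 with normexp and quantile normalization. Among the proximal tubule genes Slc13a3 and Slc34a1 passed with that prior, Slc13a3 with probes well above background on all 6 arrays, and Slc5a2 with quantile normalization, alone or with normexp. The part of the red blood cell marker genes in the Gdf15 difference was not tested. In bulk tissue, fewer cells of a type and less RNA per cell cannot be told apart.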

How the data were processed

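RNA of 6 rats was measured on 1-colour Agilent arrays. The deposited scanner files give each spot's intensity (linear scale), extracted with Agilent Feature Extraction 10.7 per the submitters' processing notes, background-subtracted and detrended within each array per the file headers. The deposited value table holds a ratio, each signal over 1 constant per array near the 75th percentile, found from the values, with column medians of 0.105 to 0.112. Processed signals were put on a log2 scale minus each array's 75th percentile. Other deposited columns are flags of 0 or 1.

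Between 38234 and 41711 of 61537 probes per array were well above background and 0 were saturated; the number of arrays limits precision. Outlier spots (0 to 9 per array) were left out. A probe was kept if every array of either group read it well above background, which left 39862, and named by accession through a RefSeq table (GRCr8), which named 28206 probes. The brightest kept probe of each of 11926 named genes, and of each array identifier with no gene name, made up 29115 features. The 3 arrays per group were tested in limma 3.58.1 (R 4.3.3), with lmFit and eBayes and no covariate, and p-values were adjusted by Benjamini-Hochberg over all features; adjusted p-values are from this fit unless the fit of all probes is named. On simulated arrays of 29116 features, 58% of genes changed by 1 log2 unit and 89% of those changed by 2 were recovered. All members, the paralogs, and from each list the genes past the threshold or the smallest p were named; 1 regulator is not reported here. Members and lists were chosen with earlier results of these data known, and the immediate early list was added after seeing the data.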

Additional observations from a re-analysis of the deposited data

How the results depend on the processing

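The alternatives were quantile normalization, array median scaling, normexp on the median signal together with quantile normalization, the deposited table, 2 other filters, outliers kept, 2 treatments of multiple probes, a variance prior with trend, the replicate number as a block and each array left out. The planned slide block could not be fitted, since each slide held 1 group. Of all features, 909 passed in limma, 378 higher and 531 lower. Array median scaling gave 435 higher and 368 lower of 803, normexp with quantile normalization 1378 in all, quantile normalization alone 868 and no filter on dim probes 172. Leaving out 1 array gave 112 to 388. Median scaling moved the median of all features to 0.056, against 0.00355. Among the members 1 passed, Gdf15, with median scaling, with normexp and quantile normalization, with probes well above background on all 6 arrays and with the trend prior. With 1 array left out, 0 to 1 passed.

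Values near 0 changed sign. With median scaling Ccng1 was at 0.018, Btg2 at 0.033 and Bax at 0.039. With normexp and quantile normalization Phlda3 was at 0.0201, Btg2 at 0.041 and Gadd45a at −0.025, and with the mean of probes Btg2 was at 0.043. With 1 array left out, Ccng1 ranged from −0.156 to 0.0683, Phlda3 from −0.206 to 0.113, Btg2 from −0.224 to 0.162, Bax from −0.0444 to 0.0125 and Sesn2 from −0.0285 to 0.368. Gdf15, Cdkn1a, Mdm2 and Aen kept their direction under all 17 alternatives. The cause of these changes was not tested.

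With the replicate number as a block, 0 features passed in limma, and the adjusted p was 0.149 for Gdf15 and 0.124 for Rchy1. Same-numbered samples correlated at 0.095, 0.018 and 0.051 in their deviations from group means. Chlorothalonil replicates 1 and 2 each correlated best with their own number. Chlorothalonil replicate 3 correlated at 0.053 with corn oil replicate 2, nearly the same as with corn oil replicate 3. These values do not settle whether the numbers pair the animals. No paired design is stated, so the main fit had no block.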

Other observations

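Some stress-responsive genes were highest in replicate 1 of both groups, a pattern noticed after the values were seen and given as a description. Of the 10 members 2 showed it, Btg2 and Sesn2, beside 13.2% of all features. Sesn2 did so only by a near tie, with corn oil replicates 1 and 3 at −0.0315 and −0.0342. The middle probe of Cdkn1a showed it too. Of 16 measured immediate early genes, which respond within minutes to stimulation, 8 showed it, namely Fos, Ier3, Dusp1, Zfp36, Klf6, Nr4a1, Ccn1 and Myc, while 13.2% of all features did. Of the genes described next, Nr4a1, Ccn1 and Ddit4 were also chosen after their values were seen. Nr4a1, an orphan nuclear receptor, was at 0.71, 0.43 and −0.28 in chlorothalonil replicates 1 to 3, against 1.27, 0.67 and 0.58 in corn oil replicates 1 to 3. Ccn1, a matrix signalling protein, was at 1.25, 0.81 and 0.13 with chlorothalonil, against 1.61, 0.91 and 0.65 with corn oil. Ddit4, an inhibitor of mTORC1 signalling, was at 3.43, 2.14 and 1.88 with chlorothalonil, against 2.50, 1.78 and 1.61 with corn oil. The labels do not say what the replicate numbers mark.

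Of the 16 immediate early genes 0 passed in limma, and 1 was below an unadjusted p of 0.05, beside 19.7% of all features. That was Jun, a subunit of AP-1, at 2.77, 2.67 and 2.61 with chlorothalonil, against 3.13, 3.27 and 2.97 with corn oil, with an adjusted p of 0.085. It passed with the robust trend prior and with normexp and quantile normalization. The median of these 16 log2 fold changes was −0.21, with 3 genes above and 13 below 0.

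Some proliferation genes, named after their values were seen, spread widely among the chlorothalonil animals. Rrm2, a ribonucleotide reductase subunit, was at 0.53, 1.16 and 1.91 with chlorothalonil, against 0.85, 1.21 and 1.05 with corn oil. Ccnb1, a mitotic cyclin, was at −3.02, −2.34 and −1.55 with chlorothalonil, against −2.99, −2.40 and −2.53 with corn oil. Chlorothalonil replicate 3 was the highest and replicate 1 the lowest of the 6 arrays for both, so 1 group held both extremes.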
